A study of Thermothelomyces thermophilus with 4 samples.

Results

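Of the 9110 gene models measured in the thermophilic fungus Myceliophthora thermophila (Thermothelomyces thermophilus), 123 were highest by a set margin when the fungus grew on flax straw. They were selected on their values alone: a mean over the 4 libraries of at least 1 FPKM (reads scaled for gene length and library total), and a flax value of FPKM + 1 at least 2 times that of the highest other straw. The rule was met by 123 of the 8230 models that passed the level filter, or 1.49%. Because these values chose the genes, the excess on flax is a description and not a finding. A further 3 models met the ratio but not the level, and 5 of the 123 passed the level only through flax, since their mean over the other straws was under 1 FPKM.

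The fungus was grown as mycelium from spores in shaken defined medium at 45 °C, with 1 crop straw as the carbon source, and poly(A) RNA was sequenced. The groups were flax straw at 24 h, oat straw at 24 h, triticale straw at 24 h and canola straw at 30 h, with 1 library each. The canola culture is thus also the one grown longest, and its straw and its time cannot be told apart. The labels name no strain, no treatment other than the straw, and no replicate culture. No value has a replicate check, and no p-value is given. Straw and culture-to-culture variation cannot be told apart, nor can more RNA per cell and more cells that make the RNA. The libraries held 7955444 reads assigned to genes for flax, 7308467 for oat, 6495371 for triticale and 7977329 for canola. Intervals below are exact 95% intervals that cover counting error only.

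Straw is lignified plant cell wall, and fungi that live on it secrete hydrolases and oxidative enzymes and take up the sugars released. Flax straw combines cellulose-rich bast fibres, which are bound by pectin, with a woody core. In filamentous fungi the genes of one metabolic pathway, above all pathways of secondary metabolism, often lie side by side on the chromosome and can be transcribed together. Catalases, which break down hydrogen peroxide, protect cells from the peroxide formed by oxidases and respiration. Of the 123 models, 122 matched a locus tag of the RefSeq annotation, all with the same length, and 1 of these carries a gene symbol, cat1. The tables used here give no product for any of them, so the genes are described by their values, length and place in gene order.

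Together the 123 genes took 4.94% of the reads on flax straw, against 1.28% on oat, 1.05% on triticale and 1.43% on canola. Their levels covered a wide range. On flax 6 genes were at 1000 FPKM or more, 34 between 100 and 1000, 72 between 10 and 100, and 11 below 10. The median gene was at 42.1 FPKM on flax, against 12.8 on oat, 8.41 on triticale and 14.4 on canola. Over all 8230 models the medians were 21.8 FPKM on flax, 21.5 on oat, 16.6 on triticale and 22.2 on canola. The reads were concentrated in few genes: the 10 with the most flax reads held 61.8% of the reads of the set, and MYCTH_2303328 alone held 10.9%.

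**Figure D1:**
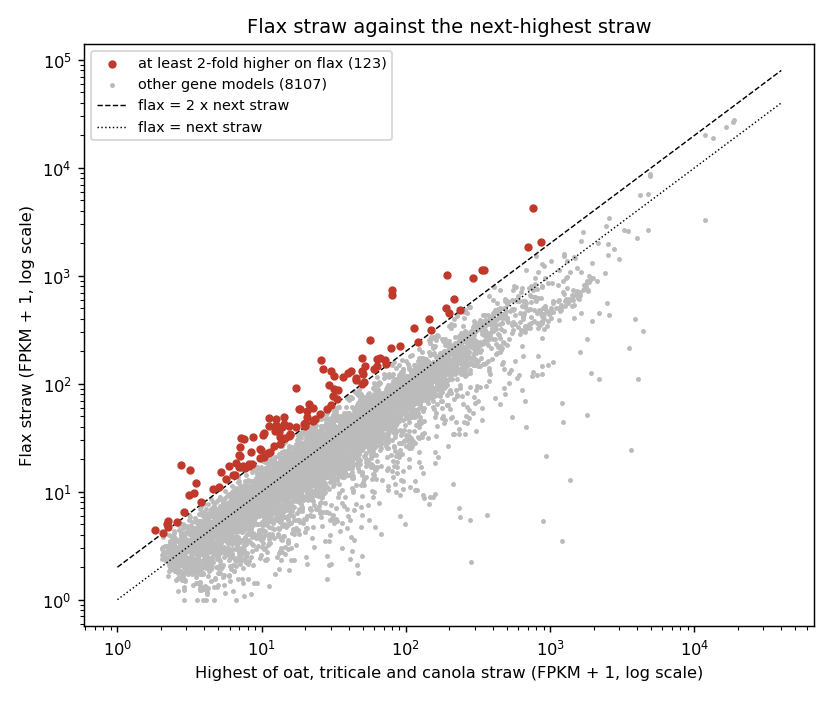
Each point is 1 gene model with a mean of at least 1 FPKM, with FPKM + 1 on flax straw (vertical, log scale) against FPKM + 1 on the highest of the other 3 straws (horizontal, log scale), 1 library per straw. The 123 red points lie at or above the dashed line of a 2-fold ratio and span levels from 3.14 to 4252 FPKM on flax.

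MYCTH_2303328 had the highest level of the set, with 4252 FPKM on flax, against 759 on oat, 522 on triticale and 460 on canola. Flax stood 5.60-fold above oat (5.46 to 5.75), while the other straws lay within 1.65-fold of each other. MYCTH_113600 had 2069 FPKM on flax, against 637 on oat, 865 on triticale and 554 on canola. Its neighbour in gene order, MYCTH_75296, had 1869 FPKM on flax, against 697 on oat, 587 on triticale and 706 on canola. Both genes were already abundant on every straw and stood 2.39-fold and 2.65-fold above the next straw. After median centring the log2 ratio of MYCTH_113600 was 0.88, which is under 2-fold. MYCTH_2314727 had 1138 FPKM on flax, against 275 on oat, 319 on triticale and 336 on canola. MYCTH_2310464 had 1129 FPKM on flax, against 255 on oat, 87.9 on triticale and 345 on canola. These 2 genes were alike on flax but differed elsewhere, since the other straws spanned 1.22-fold for the first and 3.93-fold for the second. MYCTH_2092861 had 945 FPKM on flax, against 290 on oat, 236 on triticale and 217 on canola. MYCTH_2309773 had 611 FPKM on flax, against 120 on oat, 214 on triticale and 206 on canola. Flax was 3.26-fold above the next straw, oat, in the first of these 2 genes and 2.85-fold above the next straw, triticale, in the second.

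The gene with a symbol, cat1 (MYCTH_80916, 2850 bases), is taken as a catalase gene from its symbol alone. It had 135 FPKM on flax (3069 reads), against 14.1 on oat (294 reads), 4.32 on triticale (80 reads) and 25.6 on canola (582 reads). Flax was 9.59-fold above oat (8.51 to 10.8), 31.3-fold above triticale (25.1 to 39.6) and 5.29-fold above canola (4.84 to 5.79). The order of the straws was graded and not flat: the other straws were themselves 4.998-fold apart on the scale of FPKM + 1. The other 5 models with a symbol are outside the set.

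Ratios were mostly modest. The median ratio of flax to the next straw, on the scale of FPKM + 1, was 2.60. Of the 123 genes, 39 reached 3-fold, 14 reached 4-fold and 9 reached 5-fold. MYCTH_82772 and MYCTH_69746, neighbours in gene order, had the first and second highest ratio of FPKM + 1, at 9.30 and 8.20. MYCTH_2061639 had the highest ratio of FPKM, 9.68, but on few reads: 83 on flax, against 6 on oat, 7 on triticale and 7 on canola, with an interval of 4.50 to 24.8. MYCTH_2303166 had 15.0 FPKM on flax, against 1.80 on oat, 0.458 on triticale and 2.19 on canola, a ratio to canola of 6.87 (4.94 to 9.79). MYCTH_69953 had 256 FPKM on flax, against 42.2 on oat, 55.1 on triticale and 50.3 on canola, a ratio to triticale of 4.65 (4.17 to 5.19). It was near flat over the other straws, which spanned 1.30-fold on the scale of FPKM + 1.

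**Figure D2:**
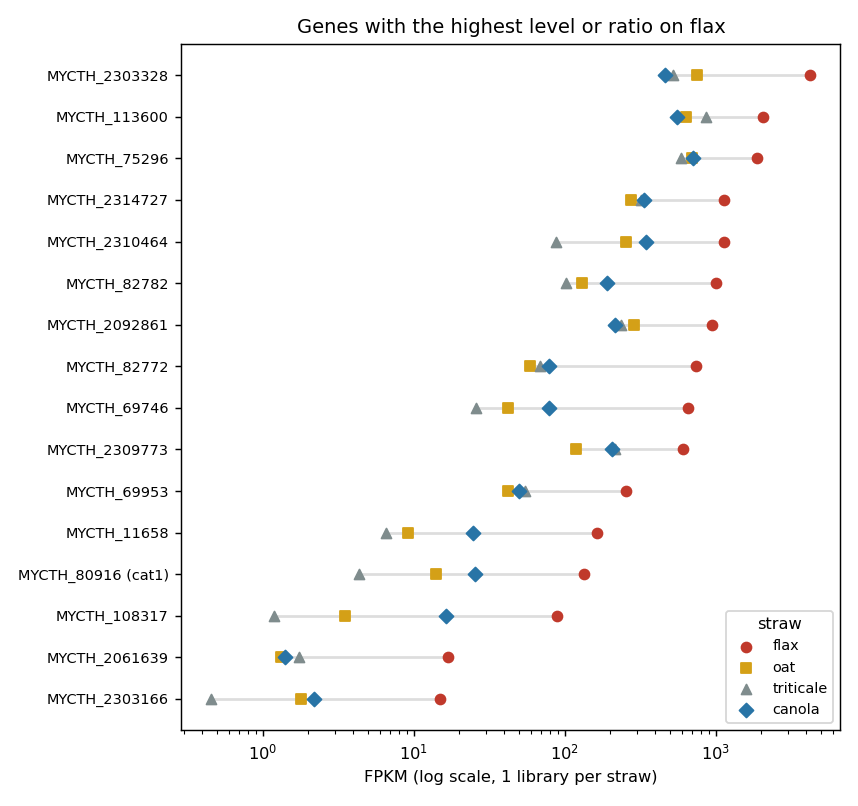
FPKM (horizontal, log scale) on flax, oat, triticale and canola straw for the 10 genes with the highest flax level and the 10 with the highest ratio of FPKM + 1 among those with at least 10 FPKM on flax, 16 genes in all, 1 library per straw. Flax lies apart on the right in each row, while the order and spread of the other straws differ from gene to gene, from near flat in MYCTH_75296 to wide in cat1 and MYCTH_108317.

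Counting error was small beside most of these ratios. The lower bound of the FPKM ratio was over 1 for 122 of the 123 genes, over 2 for 76 and not over 2 for 47. The intervals use the same reads that chose the genes and are not corrected for that choice, so these counts are a description. The median gene had 618 reads on flax and 242 on the next straw, and 9 genes had fewer than 10 reads on the next straw. No gene was at 0 on any straw. The interval that included 1 was that of MYCTH_2058054, a model of 204 bases with 6 reads on flax, against 1 on oat, 1 on triticale and 2 on canola (ratio to canola 3.01, 0.538 to 30.5). MYCTH_2130352 had 16 reads on flax, against 5 on oat, 1 on triticale and 4 on canola (ratio to oat 2.94, 1.03 to 10.3), so the size of its ratio is poorly determined.

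The edge of the set was not a gap. MYCTH_2130352, MYCTH_83025 and MYCTH_2303407 were just inside, with ratios of FPKM + 1 of 2.002, 2.004 and 2.01. MYCTH_2294006, MYCTH_59137 and MYCTH_2299026 were just outside, at 1.989, 1.989 and 1.985. Of the 3 outside, MYCTH_2294006 and MYCTH_2299026 each lie next to a gene of the set.

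**Figure D3:**
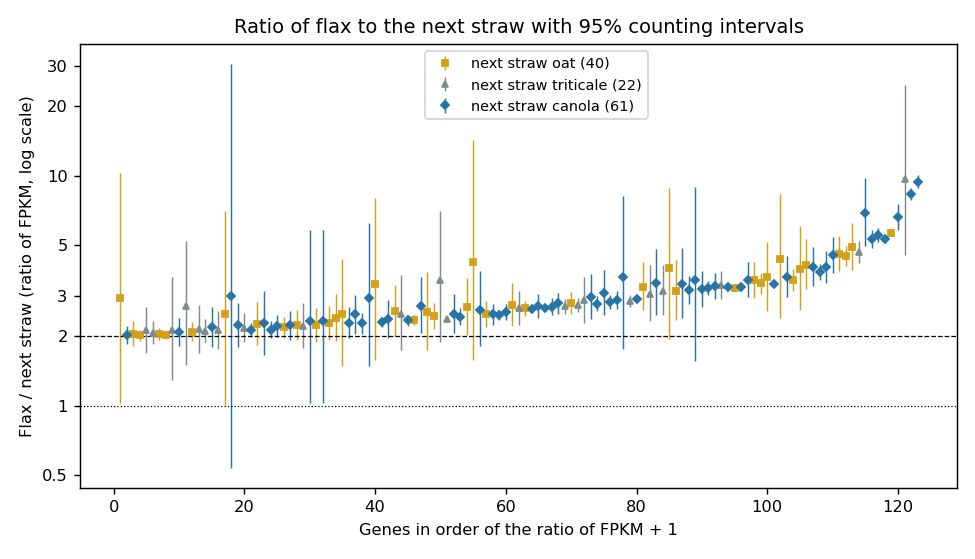
The ratio of FPKM on flax to the next-highest straw (vertical, log scale) for the 123 genes in order of their ratio of FPKM + 1, with exact 95% counting intervals, and with the next straw shown by colour and marker. Most intervals are narrow, the lower bound is over 2 for 76 genes, and the widest interval, 0.538 to 30.5, is that of MYCTH_2058054.

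Gene order, which the rule did not use, set many of these genes side by side. Of the 122 placed genes, 44 (36.1%) were immediate neighbours of another gene of the set in the order of protein-coding genes, forming 28 adjacent pairs. Of the 218 neighbouring places held by models that passed the level filter, 56 (25.7%) belonged to the set, against 1.49% of all models that passed. The neighbours fell into 16 runs: 1 run of 7 genes, 1 of 5, 1 of 4, 2 of 3 and 11 pairs. Within 10 genes of another gene of the set lay 62, a count that includes the 44. No share over all models was computed at this distance, so the 62 does not show a wider grouping. The spans of no adjacent pair overlapped, and 3 pairs were 100 bases or less apart, where reads of one gene could be counted for the other. Side-by-side placement was not peculiar to flax. Of the 240 genes highest on canola by the same rule, 62 (26.1% of those placed) had such a neighbour, while 0 of 24 highest on oat did. The sets differ in size, which alone changes these shares, and the differences between them were not tested.

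The run of 7 comprised, in gene order, MYCTH_2064854, MYCTH_82782, MYCTH_11658, MYCTH_108317, MYCTH_69746, MYCTH_82772 and MYCTH_108314. Together they took 0.549% of reads on flax, against 0.0527% on oat, 0.0435% on triticale and 0.0867% on canola, so flax was 10.4-fold above oat, 12.6-fold above triticale and 6.34-fold above canola. Of the 10 genes with the highest ratio in the whole set, 5 belonged to this run.

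MYCTH_82782 was its most abundant gene, with 1007 FPKM on flax, against 130 on oat, 103 on triticale and 191 on canola. MYCTH_82772 had 738 FPKM on flax, against 58.8 on oat, 69.2 on triticale and 78.5 on canola, a ratio to canola of 9.40 (8.81 to 10.04). MYCTH_69746 had 659 FPKM on flax, against 42.5 on oat, 25.8 on triticale and 79.4 on canola, a ratio to canola of 8.29 (7.82 to 8.81). These 3 genes differed more in level on the other straws than on flax. MYCTH_11658 had 164 FPKM on flax, against 9.18 on oat, 6.52 on triticale and 24.9 on canola. MYCTH_108317, a model of 7198 bases, had 89.5 FPKM on flax, against 3.52 on oat, 1.20 on triticale and 16.3 on canola. Its other straws spanned 7.86-fold on the scale of FPKM + 1. MYCTH_2064854, of 492 bases, had 131 FPKM on flax, against 17.2 on oat, 6.88 on triticale and 40.8 on canola. MYCTH_108314, at the far end, had 95.9 FPKM on flax, against 28.2 on oat, 27.9 on triticale and 27.6 on canola. It alone in the run was flat on the other straws and had oat as the next straw; the other 6 had canola.

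The run had sharp ends. The 6 models on either side of it were at most 25.1 FPKM on flax, with ratios of FPKM + 1 between 0.561 and 1.53. The first model before it, MYCTH_2306185, had 7.44 FPKM on flax, against 7.32 on oat, 5.52 on triticale and 14.0 on canola. The first model after it, MYCTH_2127750, had 12.7 FPKM on flax, against 10.6 on oat, 16.0 on triticale and 7.07 on canola. Neither was highest on flax, but several models further out were, at ratios of FPKM + 1 up to 1.53.

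**Figure D4:**
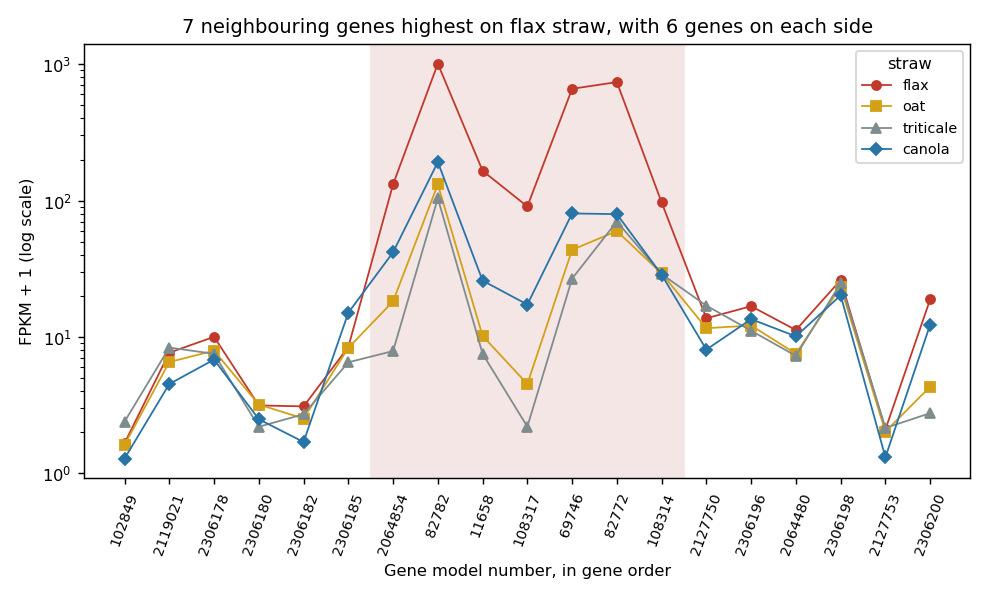
FPKM + 1 (vertical, log scale) on flax, oat, triticale and canola straw, 1 library each, for the run of 7 neighbouring genes (shaded) and the 6 gene models on either side, in gene order (horizontal, numbers of the locus tags); lines join the values of 1 straw. Within the shaded stretch flax lies above the other straws at every gene, and outside it flax is at 25.1 FPKM or less. Several flanking models are also highest on flax: MYCTH_2306178, MYCTH_2306182, MYCTH_2306196, MYCTH_2064480, MYCTH_2306198 and MYCTH_2306200. Of these, MYCTH_2306200, at the right edge, has the largest ratio of FPKM + 1, 1.53, at 17.9 FPKM on flax.

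The run of 5 was lower in level and more even. It comprised MYCTH_2140533, MYCTH_2310379, MYCTH_109870, MYCTH_2096317 and MYCTH_2316248, with ratios of FPKM + 1 between 3.07 and 3.71, and canola was the next straw for all 5. MYCTH_109870, the most abundant, had 117 FPKM on flax, against 14.8 on oat, 8.22 on triticale and 30.9 on canola. MYCTH_2316248 had 64.4 FPKM on flax, against 13.7 on oat, 8.19 on triticale and 20.3 on canola. MYCTH_2310379 had 57.5 FPKM on flax, against 7.32 on oat, 8.09 on triticale and 17.4 on canola. In these 3 genes canola was second, while oat was above triticale in the first and second and slightly below it in the third. MYCTH_2140533 had 32.7 FPKM on flax, against 6.21 on oat, 2.58 on triticale and 9.29 on canola. MYCTH_2096317 had 30.8 FPKM on flax, against 3.41 on oat, 1.59 on triticale and 7.67 on canola. After 2 models at ratios of 1.20 and 1.10, another pair of the set followed, MYCTH_74601 and MYCTH_2310392, at 39.0 and 35.1 FPKM on flax.

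The run of 4 lay 6 genes from cat1. MYCTH_2304423 had 30.5 FPKM on flax, against 6.22 on oat, 2.17 on triticale and 5.83 on canola, and MYCTH_2304427 had 30.7 on flax, against 12.8 on oat, 4.02 on triticale and 13.4 on canola. The short models MYCTH_2304420 and MYCTH_2304424 were at 10.1 and 8.69 FPKM on flax. Each was at most 4.04 FPKM on any other straw, and MYCTH_2304424 rested on 36 flax reads. The 5 models between cat1 and the run were all under 2-fold, with ratios of FPKM + 1 from 0.62 to 1.88, and 4 of them were highest on flax. MYCTH_2304419, which adjoins the run, was at 1.88.

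The 2 runs of 3 were of modest level. In the first, MYCTH_104945 had 39.9 FPKM on flax, against 16.0 on oat, 6.72 on triticale and 19.1 on canola. MYCTH_2298951 had 20.6 FPKM on flax, against 4.72 on oat, 2.49 on triticale and 6.09 on canola. MYCTH_2124220 had 41.7 FPKM on flax, against 13.2 on oat, 5.79 on triticale and 11.9 on canola. All 3 were lowest on triticale, and the models on either side were at ratios of 0.76 and 0.74. In the second, MYCTH_2310976 had 35.8 FPKM on flax, against 9.59 on oat, 11.3 on triticale and 10.1 on canola, with MYCTH_2310975 at 14.3 and MYCTH_2113078 at 4.28 FPKM on flax on either side of it.

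Several pairs stood in wider stretches. MYCTH_75296 and MYCTH_113600 together took 0.769% of flax reads, against 0.268% of oat, 0.271% of triticale and 0.259% of canola reads. All 7 consecutive models from MYCTH_61442 to MYCTH_2311121, which include this pair and MYCTH_105482, were highest on flax, at ratios of FPKM + 1 from 1.36 to 2.65. MYCTH_105482, of 7699 bases, had 498 FPKM on flax, against 92.2 on oat, 48.8 on triticale and 189 on canola. MYCTH_75351 and MYCTH_61507 are neighbours and long, at 25321 and 6224 bases. MYCTH_75351 had 126 FPKM on flax, against 32.4 on oat, 31.8 on triticale and 38.4 on canola. MYCTH_61507 had 328 FPKM on flax, against 108 on oat, 78.9 on triticale and 113 on canola. This pair took 0.522% of flax reads, against 0.149% of oat, 0.130% of triticale and 0.167% of canola reads. MYCTH_2308893 and MYCTH_2308894, at 107 and 88.1 FPKM on flax, are parted from MYCTH_108615 and MYCTH_2308895, at 32.8 and 59.1, by 1 model, MYCTH_95817, which was under 1 FPKM on every straw. All 4 had canola as the next straw.

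**Figure D5:**
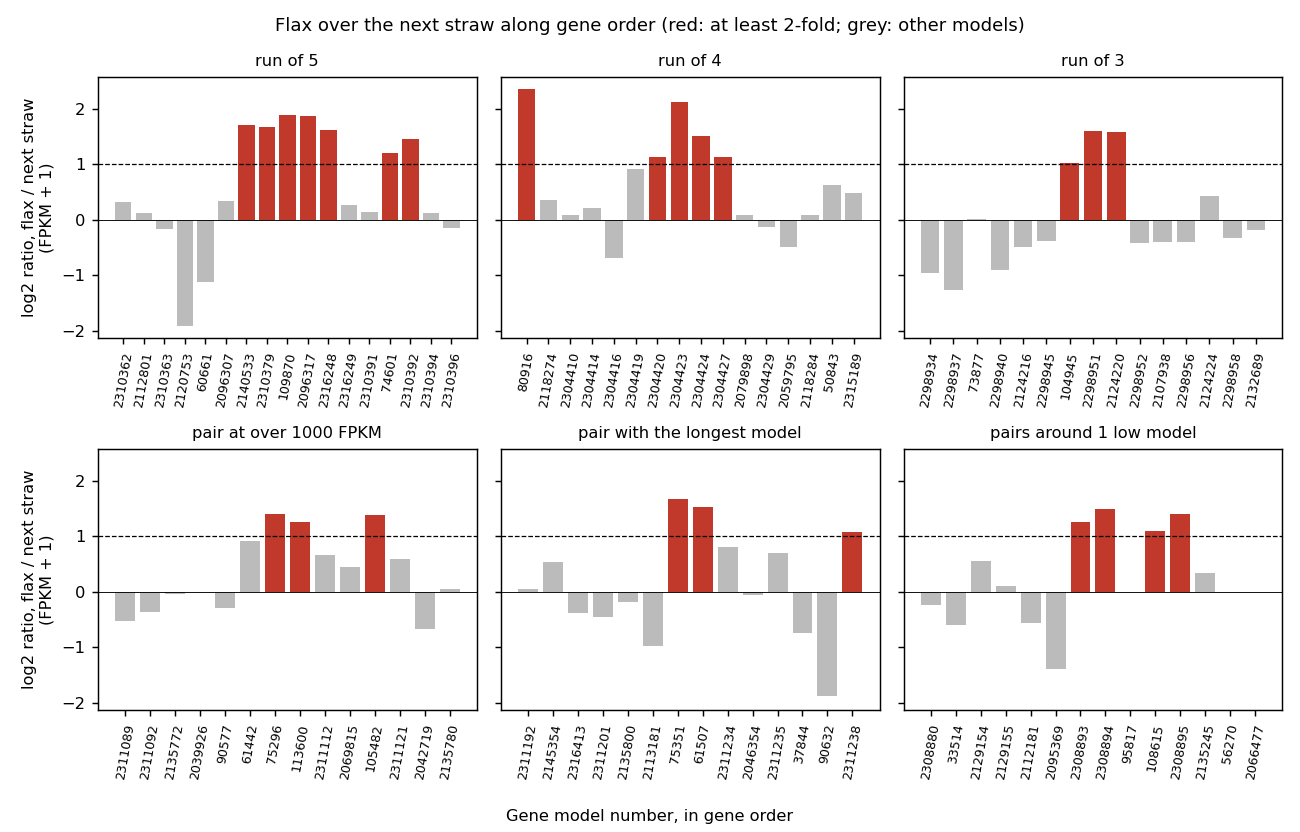
The log2 ratio of flax to the next-highest straw (FPKM + 1; vertical) along gene order (horizontal, numbers of the locus tags) for 6 stretches with their surrounding models, 1 library per straw; red bars are genes of the set, grey bars other models, and the dashed line is a 2-fold ratio. No grey bar reaches the dashed line. The models that adjoin the run of 3 are below 0 and those that adjoin the run of 5 are slightly above it, while around the pair at over 1000 FPKM 1 model reaches a ratio of 1.89.

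Models beside the set, which by the rule are under 2-fold, were highest on flax more often than other models outside it. Of 160 neighbouring models outside the set that passed the level filter, 86 (53.8%) were highest on flax, against 2350 of the 8107 models outside the set (29.0%). Their median ratio of FPKM + 1 was 1.02, against 0.843, and 23 (14.4%) reached 1.5-fold, against 3.21%.

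Neighbours often had the same next straw. In 20 of the 28 adjacent pairs (71.4%) the next straw was the same, against 37.9% of all 7503 pairs within the set and 50.8% of the 946 pairs that can be formed among the 44 genes with a neighbour. The runs of 7 and of 5 supplied 10 of the 28 pairs. In them canola was next for 6 of the 7 genes and for all 5, so much of the agreement lies in these runs. Canola was the next straw for 30 of the 44 genes with a neighbour in the set (68.2%) and for 31 of the 79 without one (39.2%). The median ratio of FPKM + 1 was 2.92 with such a neighbour and 2.40 without. Median levels on flax differed little, at 41.1 and 45.7 FPKM. Genes with a neighbour in the set took 2.15% of flax reads and genes without one 2.79%, so the runs are not where most of the reads lay.

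The order of the other straws varied within the set. The next straw was canola for 61 genes, oat for 40 and triticale for 22. These shares, 49.6%, 32.5% and 17.9%, were close to those of all 2473 models highest on flax at any ratio, 45.9%, 32.0% and 22.1%. Triticale was the lowest straw for 78 genes (63.4%), against 60.6% of the 2473. The 3 other straws lay within 1.5-fold of each other for 51 genes (41.5%), against 48.1% of the 2473. They were at least 3-fold apart for 20 (16.3%), against 8.01% of the 2473. Over all 8230 models these shares were 41.30% and 13.04%, nearer to those of the set.

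Contrasts without flax showed where the set was uneven. Canola was at least 2-fold above oat for 15 genes (12.2%), against 7.23% of all 8230 models, and oat above canola for 1 (0.813%), against 2.60%. Canola was at least 2-fold above triticale for 37 genes (30.1%), against 24.6%, and triticale above canola for 2 (1.63%), against 3.13%. Oat was at least 2-fold above triticale for 19 genes (15.4%), against 14.2%, close to the background, and triticale above oat for 1 (0.813%), against 0.352%. The comparison depends on the background. Among the 2473 models highest on flax, canola was 2-fold above oat for 3.23% and oat above canola for 0.485%. Triticale was above canola for 0.849% of them, so for these last 2 contrasts the set lay below all models but above the models highest on flax, on counts of 1 and 2 genes. The rule sets a ceiling on the highest of these straws, so the shares are a description.

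Genes far apart on the other straws included MYCTH_2301730, with 48.7 FPKM on flax, against 2.04 on oat, 0.674 on triticale and 13.4 on canola. MYCTH_2308183 had oat and canola alike, with 57.6 FPKM on flax, against 27.5 on oat, 8.66 on triticale and 27.0 on canola. MYCTH_2304259 was similar, with 25.5 FPKM on flax, against 11.2 on oat, 3.12 on triticale and 9.03 on canola. Both were low on triticale only. MYCTH_39233 went the other way, with 62.7 FPKM on flax, against 23.4 on oat, 29.4 on triticale and 7.24 on canola. MYCTH_56173 was apart on triticale, with 87.2 FPKM on flax, against 15.0 on oat, 32.9 on triticale and 15.4 on canola.

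On both dicot straws, flax and canola, 13 of the genes (10.6%) passed 2-fold over both oat and triticale. The share was 1.82% of all models and 2.87% of the 2473 models highest on flax. The rule itself fixes the flax side of this count. Of the 13, 9 had a neighbour in the set, among them 3 of the run of 7 (MYCTH_2064854, MYCTH_11658 and MYCTH_108317) and 2 of the run of 5 (MYCTH_109870 and MYCTH_2310379).

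The median gene length was 1852 bases, against 1797 for all models. The quartiles were 1082 and 2344 bases, against 1232 and 2499. Models under 500 bases made up 8 of the 123 (6.50%), against 2.89% of all models, and they held at most 511 flax reads each. The neighbouring models MYCTH_2060549 and MYCTH_2062645 are both 168 bases long, with 28 and 21 flax reads; whether they are copies that share reads was not tested. The 4 genes of 5000 bases or more (3.25%, against 2.84%) took 0.969% of flax reads. All 4 lay within 3 genes of another gene of the set, and 3 of them are immediate neighbours counted above. No share at this distance was computed for genes of other lengths.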

How the data were processed

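The authors deposited 1 table of FPKM values with a length in bases for each of 9110 gene models. The sources used here give no aligner, counter or genome build. Trizol RNA and an Illumina mRNA kit were used, per the labels' protocols. FPKM times length was a whole multiple of its smallest value in each library (tolerance 0.001 reads, 100% of values), which gave back the reads per gene. Because lengths equal gene spans for 9075 of the 9087 models matched to RefSeq assembly ASM22609v1, introns count towards length, and FPKM is too low for intron-rich genes, equally in all libraries. The kit is not described as stranded. That assembly was used only for names, lengths and gene order, and no positions are given.

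With 1 library per straw no test was run. Ratios carry exact Clopper-Pearson intervals (95%) computed with scipy 1.17.1. The intervals cover counting error only and hold no variation between cultures. PCR copies are not independent molecules, so even the counting error may be understated. The FPKM + 1 scale understates ratios of low genes. The genes and the rule were chosen with earlier results of these data known. The named genes are the 10 highest by flax level and by ratio, those with a symbol, the runs of 3 or more neighbours, the extremes of the other straws, the fewest reads and the edge of the threshold; the genes of the pairs, of the stretches around them and at the ends of runs were chosen after their values were seen. Gene order was examined after the table was seen. The planned lists by product or protein signature, the promoter words and protein features were not used here, because the tables hold no products or sequences. The rule and the intervals were tried on simulated counts with counting error only. That simulation held no variation between cultures, and interval coverage was not checked for genes with few reads.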

Additional observations from a re-analysis of the deposited data

How the results depend on the processing

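The number of genes, 123, was between 90 and 158 under 10 of the 13 alternatives; it was 64 with a pseudocount of 10, 39 at a ratio of 3, and 369 without canola straw, where 1 straw fewer has to be cleared and the remaining libraries are all from 24 h. Each alternative scaling or removed trend kept at least 100 of the 123, and 91 were kept under all of them. The share of flax reads was 5.01% with a pseudocount of 0.1, 4.47% with 10, 4.88% with a filter at a mean of 10 FPKM, 4.47% after median centring, 4.62% after TMM scaling, 4.64% and 7.80% with the trend with gene length or expression level removed, 9.41% without canola, 5.99% without oat, 5.54% without triticale, 2.37% at a ratio of 3, and 4.40% without MYCTH_2303328. The number of genes with a neighbour in the set, 44, was 20 with a pseudocount of 10, 28 with the filter at 10 FPKM, 109 of 369 without canola and 16 of 39 at a ratio of 3; these alternatives for neighbours were chosen after seeing the data. It was 40 without pairs 100 bases or less apart and 44 with tRNA genes counted in the order. All genes of the runs of 7 and of 5 met the rule under all 13 alternatives. The lower pseudocount, the removed filter and the omission of a straw can only add genes, so these alternatives could not have removed any. Of 400 recomputed log2 ratios of 40 named genes, 312 stayed within the counting interval, 88 moved beyond it and 0 changed sign. The lowest was 0.25. A changed pseudocount or an omitted straw could not change the sign. Omitting a straw other than the next one leaves the ratio as it was, so part of the 312 was fixed in advance. Under a scaling or a removed trend, 5 of these 40 genes came under 2-fold. They were MYCTH_113600 (0.88 after median centring), MYCTH_39233 (lowest 0.69), MYCTH_104945 (0.98), MYCTH_2113078 (lowest 0.66) and MYCTH_2130352 (lowest 0.96). Most genes of the pairs and some at the edge of the threshold are not among the 40. Of the pair MYCTH_74601 and MYCTH_2310392, 1 stayed in the set with the trend with expression level removed. Median centring subtracted 0.09 from flax, 0.07 from oat, -0.28 from triticale and 0.12 from canola on the log2 scale, so it raised triticale and lowered the others. The ratios above are relative to the deposited scaling. No paired analysis was possible because each straw has 1 library. Depth limits the 9 genes with fewer than 10 reads on the next straw.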
